A study of Mus musculus with 16 samples.

Results

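The 6 genes described here, Grm2, Grm3, Grm4, Grm5, Grm7 and Grm8, encode metabotropic glutamate receptors and were taken as every row carrying one of these gene names. They hold 21 of the 80137 transcripts and 6 of the 18287 named genes measured in the mouse hippocampus. The study compared 4 groups of 4 wild-type male C57BL/6 mice at 3 months of age, with both hippocampi of a mouse combined in 1 library. Homecage (HC) mice received no shocks, handling or behavioral testing. Control (Ctrl) mice were handled and placed in a shuttle box without inescapable shocks. The next day they went through 30 escape trials there at 0.4 mA. A further set of mice was given 180 inescapable shocks at 0.4 mA and tested in the same 30 escape trials 24 h later. From it came the learned helpless group (LH) and the non-learned helpless group (NLH), which had the same procedure and were separated by escape behavior. An escape ended the shock of a trial, so the shock time received in the test depended on that behavior.

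Metabotropic glutamate receptors are G protein-coupled receptors that bind the transmitter glutamate and adjust synaptic strength, rather than carrying current themselves. Group I receptors, here Grm5 (mGlu5), couple to Gq and phospholipase C and sit mostly on the postsynaptic side. Group II receptors (Grm2 and Grm3) and group III receptors (Grm4, Grm7 and Grm8) couple to Gi/o, lower cyclic AMP and, at presynaptic terminals, reduce transmitter release. Grm3 is also made by astrocytes, and Grm7 is placed at the active zone of many hippocampal terminals. Grm5, Grm7 and Grm8 are each spliced into forms with different intracellular tails.

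The stretches that separate these splice forms are shown because the transcript values below turn on them. All were read from GENCODE vM21 transcripts on the GRCm38 build, and capitals mark the stop codon. The exon of 96 bases in Grm5-204 (chr7:88116193-88116288, plus strand) is coding and holds no stop codon in its reading frame, so the 1171 codons of Grm5-202 become 1203. Grm7-201 holds an added exon of 92 bases and ends inside it (chr6:111501510-111501580, plus strand) after 922 codons, whereas Grm7-202 skips it and ends at chr6:111566018-111566067 after 915. In Grm8-202 a shared exon goes on for a further 55 bases and holds the end at chr6:27285685-27285734 (minus strand), while Grm8-201 ends at chr6:27275645-27275694, both after 908 codons.
Grm5-204 exon: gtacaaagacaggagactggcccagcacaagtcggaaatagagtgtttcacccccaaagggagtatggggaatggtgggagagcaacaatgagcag
Grm7-201 end: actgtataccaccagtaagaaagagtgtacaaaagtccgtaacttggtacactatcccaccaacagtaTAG
Grm7-202 end: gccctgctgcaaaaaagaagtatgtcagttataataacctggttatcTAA
Grm8-201 end: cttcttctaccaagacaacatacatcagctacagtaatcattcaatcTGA
Grm8-202 end: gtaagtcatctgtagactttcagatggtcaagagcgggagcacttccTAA

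Expression levels were FPKM, in which fragment numbers are divided by transcript length and by the mapped fragments of the library, and a gene's level is the sum over its transcripts. Depth is not given by these values. It was estimated from the steps between low values at 20160000 to 38070000 fragments per mouse, with the lowest estimate in LH replicate 4. LH replicates 3 and 4 stood apart from the other 14 mice, with 10846 and 15504 transcripts at 0 against 4872 to 7352. The median SD of log2 gene sums was 0.36 in LH and 0.14 to 0.20 in the other groups. A size factor is the median ratio of a mouse's gene sums to their geometric mean over all mice. It was highest in LH replicates 1 and 2, at 1.15 and 1.19, against 0.812 to 1.13 in the other mice. Fits without LH replicates 3 and 4 keep only these LH mice and were not scaled by size factors. All 8 hippocampal neuron markers examined, among them Camk2a and Prox1, had a mean of at least 1 FPKM.

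Over all 16 mice Grm5 had the highest mean at 43.6 FPKM and ranked 343 among the named genes. Grm3 (13.2 FPKM) and Grm7 (12.9 FPKM) followed, and their ranges overlapped, with Grm3 the higher in 11 of 16 mice. Grm2 (3.86 FPKM) and Grm8 (3.31 FPKM) also overlapped, and their order of means was not the same in all groups. Grm2 was the higher in all 8 HC and Ctrl mice and in 4 of the 8 NLH and LH mice. Grm4 was lowest at 1.30 FPKM. The gaps from Grm5 to Grm3, from Grm7 to Grm2 and from Grm8 to Grm4 were present in 16 of 16 mice, although the lowest Grm8 value, 2.07 FPKM, lay close to the highest Grm4 value, 2.04 FPKM.

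**Figure D1:**
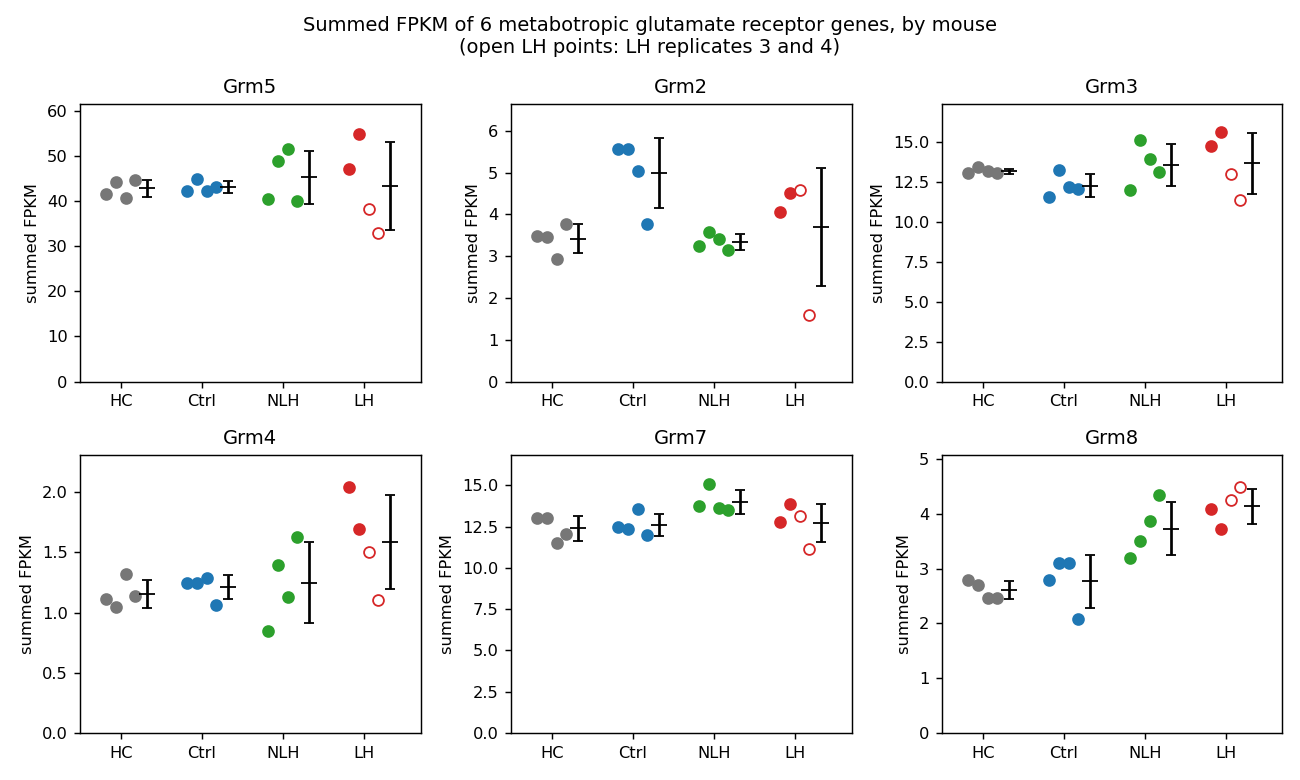
Summed FPKM of each receptor gene (y axis, linear, from 0) for every mouse in the HC, Ctrl, NLH and LH groups, with the group mean and SD beside the points and LH replicates 3 and 4 drawn open. Grm8 is higher in all NLH and LH mice (3.20 to 4.49) than in all Ctrl mice (2.07 to 3.10), and Grm2 in Ctrl lies above HC and NLH. Of all genes, 5.24% do not overlap in Ctrl vs. HC, 6.04% in NLH vs. Ctrl and 5.59% in LH vs. Ctrl.

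No receptor gene passed the test across all genes in any comparison. With limma on log2(FPKM + 0.1) and Benjamini-Hochberg adjustment over 18287 genes, 0 of 6 had an adjusted p under 0.05 in Ctrl vs. HC, NLH vs. Ctrl, LH vs. Ctrl or LH vs. NLH. The percentages of all genes called were 0, 0.00547, 0 and 0.0109%, respectively. At an unadjusted p under 0.05 the counts were 0, 2, 1 and 0 of 6, where 2.70, 5.59, 11.5 and 7.54% of all genes passed. These unadjusted counts depended on single mice. With any 1 mouse left out they were 0 to 1 in Ctrl vs. HC (1 without Ctrl replicate 4), 1 to 2 in NLH vs. Ctrl (2 only without Ctrl replicate 4), 1 to 3 in LH vs. Ctrl (3 without LH replicate 4, 2 without Ctrl replicate 4 or any other LH mouse) and 0 to 2 in LH vs. NLH (2 without LH replicate 4, 1 without NLH replicate 4). Without LH replicates 3 and 4 together they were 4 when LH was compared with Ctrl and 2 with NLH, and after scaling by size factors 2, 1, 2 and 0. The study's own kind of test, an unadjusted equal-variance comparison of FPKM, gave 1, 3, 1 and 0 of 6, against 8.50, 9.58, 8.03 and 3.50% of all genes. The values that follow therefore describe sizes and spreads. In whole tissue, fewer cells of a type and less RNA per cell cannot be told apart.

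**Figure D2:**
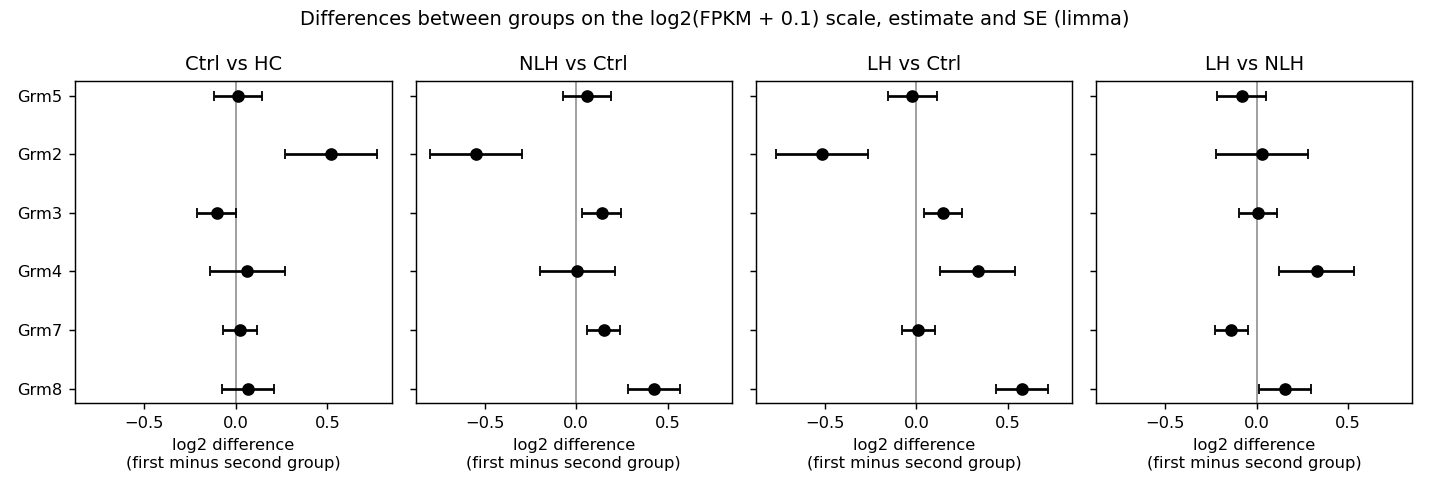
Difference of each receptor gene on the log2(FPKM + 0.1) scale (x axis, first minus second group) with its SE from limma, 1 panel per comparison. Grm8 lies at 0.43 in NLH vs. Ctrl and 0.58 in LH vs. Ctrl, Grm2 at 0.52 in Ctrl vs. HC and at -0.55 and -0.52 in NLH vs. Ctrl and LH vs. Ctrl, and none passed the adjusted test.

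Grm5, the group I receptor, had group means close to each other and a wider spread in NLH and LH. HC mice averaged 42.8 ± 1.92 FPKM, Ctrl mice 43.1 ± 1.29, NLH mice 45.2 ± 5.83 and LH mice 43.3 ± 9.68 (SD, n = 4 each). The LH mice were at 47.1, 54.9, 38.2 and 33.0 FPKM, so that this group held both the highest and the lowest unscaled values of the series. The size factors of these mice, in the same order, were 1.15, 1.19, 0.948 and 0.812. The LH vs. Ctrl difference was -0.02 (SE 0.13, limma adjusted p = 0.982) and turned to 0.24 (adjusted p = 0.18) without LH replicates 3 and 4. LH vs. NLH was -0.08, and 0.18 without those mice, so no direction can be given for Grm5 in these comparisons. With all mice and scaling by size factors, LH vs. Ctrl was -0.06 (SE 0.05) and LH vs. NLH was -0.04 (SE 0.05).

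Within the sum, the Grm5 transcripts varied between mice. Grm5-202, the form without the 96-base exon that corresponds to mGlu5a, made up 43.7% of the Grm5 mean. HC mice were at 18.3, 16.9, 16.6 and 17.0 FPKM and Ctrl mice at 17.8, 17.5, 18.2 and 18.5. NLH mice had 24.7, 17.4, 17.8 and 14.1 FPKM and LH mice 26.0, 23.4, 22.3 and 18.2. Of the LH mice, 3 lay above every Ctrl mouse and replicate 4 lay within the Ctrl range. The LH vs. Ctrl difference was 0.31 (SE 0.14, limma adjusted p = 0.454). Without LH replicates 3 and 4 it was 0.45 (adjusted p = 0.2).

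Grm5-204, which includes the exon and corresponds to mGlu5b, made up 25.7% of the Grm5 mean. Its values were 9.66, 10.7, 10.1 and 11.9 FPKM in HC and 11.3, 13.0, 12.3 and 11.2 in Ctrl. NLH mice were at 7.54, 17.7, 17.0 and 12.7 FPKM, and LH mice at 9.58, 12.1, 5.90 and 6.77. The LH mice were mostly low and overlapped HC, Ctrl and NLH, and the NLH mice were widely spread. LH vs. NLH was -0.66 (SE 0.25, limma adjusted p = 0.485) and -0.28 (adjusted p = 0.754) without LH replicates 3 and 4. In LH vs. Ctrl the difference was -0.53 (SE 0.25, adjusted p = 0.468) and -0.15 without those mice.

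The share of Grm5-204 in the 3 full-length coding transcripts Grm5-201, Grm5-202 and Grm5-204 puts both forms on 1 scale. This share was looked at after the transcript values were known and carries no test of its own. Grm5-202 has 3253 bases and Grm5-204 has 96 that are in no other Grm5 transcript measured. Assembled transcripts without a gene name held 15.8% of the Grm5 locus and are not in the share. These 4 were higher in LH than in NLH by 0.22 to 1.11 (limma adjusted p of 0.367 or more). HC had a share of 34.8% ± 2.55, Ctrl of 38.5% ± 2.44, NLH of 41.6% ± 12.4 and LH of 27.0% ± 5.00 (SD, n = 4 each). The LH mice, at 26.9, 33.2, 20.9 and 27.1%, all lay below the lowest Ctrl mouse at 35.5%, but overlapped HC, where the lowest mouse was at 32.7%. NLH replicate 1, at 23.4%, lay among the LH mice, whereas the other NLH mice were at 43.8 to 50.3%. The LH minus Ctrl gap was -13.5 to -9.45 percentage points when any 1 mouse was left out and -8.47 without LH replicates 3 and 4.

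Transcript use was tested in 8920 genes with at least 2 transcripts of 0.1 FPKM or more, which include Grm5, Grm7 and Grm8. By limma diffSplice 0 of 3 receptor genes passed an adjusted p of 0.05 in any comparison, where 0.437, 1.51, 4.25 and 3.39% of genes did in the order above. Unadjusted it gave 0, 1 (Grm5), 2 (Grm5 and Grm8) and 0 of 3, against 6.69, 9.94, 18.6 and 17.2% of genes. Its smallest value was for Grm5 in LH vs. Ctrl (adjusted p = 0.108), and NLH vs. Ctrl had an adjusted p of 0.483. In both comparisons the Grm5 transcript with the smallest diffSplice p was Grm5-201, which has 0 bases of its own among those measured. In LH vs. Ctrl it was at -2.40 relative to the gene's other transcripts (diffSplice adjusted p = 0.0872). Grm5-204 was there at 0.14 (adjusted p = 0.976) and Grm5-202 at 1.14 (adjusted p = 0.601). The diffSplice values for Grm5 therefore do not test the Grm5-204 share. That test shares 1 variance over a gene's transcripts and made false calls on simulated data, so its calls may be too many. A test with each transcript's own variance was added for this reason and made no false calls on data simulated without change. It gave 0 of 3 in every comparison, where 0, 0.0336, 0.101 and 0.123% of genes passed, and for Grm5 in LH vs. Ctrl its adjusted p was 0.381 (limma). Unadjusted it also gave 0 of 3, against 3.48, 5.66, 13.4 and 11.7% of genes. A gene that neither test calls is not thereby shown to keep its transcript use.

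**Figure D3:**
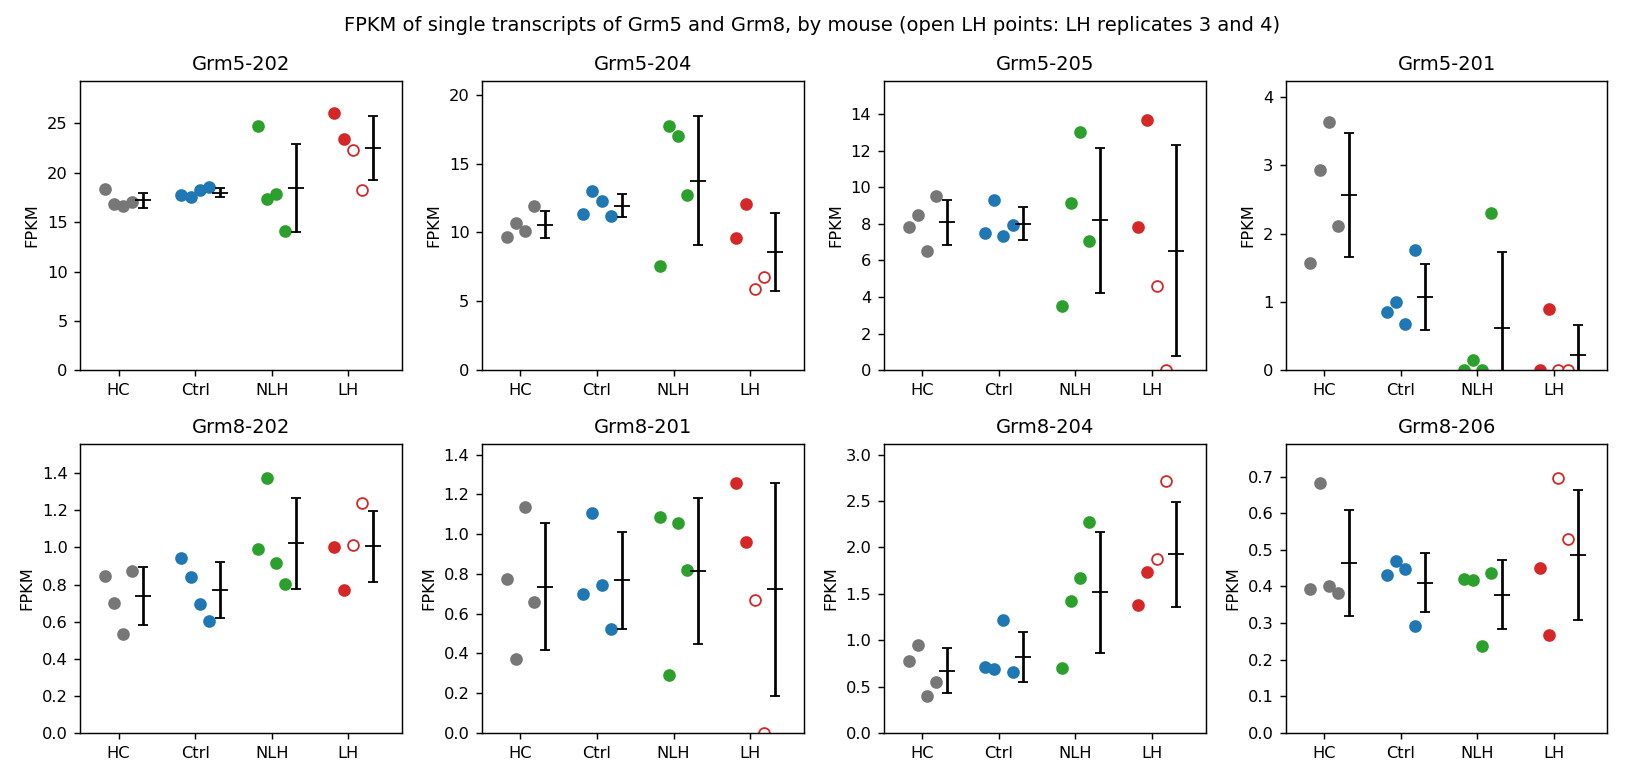
FPKM of single Grm5 transcripts (upper row) and Grm8 transcripts (lower row) for every mouse, on linear y axes from 0, with the group mean and SD and with LH replicates 3 and 4 drawn open. Grm8-204 is at 1.38 to 2.72 in LH and 0.654 to 1.22 in Ctrl, while the other Grm8 transcripts overlap between groups.

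The minor Grm5 transcripts were less certain. Grm5-201 encodes the same 1171 codons as Grm5-202 and has 0 bases of its own among these transcripts, so its level rests on how shared fragments were divided. It was at 1.57 to 3.64 FPKM in HC and 0.670 to 1.77 in Ctrl, at most 0.153 in NLH replicates 1 to 3 with 2.30 in replicate 4, and under 0.001 in LH replicates 1, 3 and 4 with 0.890 in replicate 2. Its LH vs. Ctrl difference was -2.64 (SE 0.92, limma adjusted p = 0.331). In NLH vs. Ctrl it was -1.98 (adjusted p = 0.971) and -3.01 without NLH replicate 4, and Ctrl vs. HC was -1.20 (adjusted p = 1). Grm5-205, a noncoding transcript of 551 bases that held 17.7% of the Grm5 mean, ranged from 3.51 to 13.7 FPKM in 15 mice and was near 0 in LH replicate 4.

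Among the group II receptors, Grm2 was highest in Ctrl. This gene encodes a presynaptic autoreceptor of glutamatergic terminals, and 98.4% of its level came from Grm2-203. The summed level was 3.49, 3.46, 2.94 and 3.77 FPKM in HC and 5.56, 5.58, 5.03 and 3.78 in Ctrl. It was 3.24, 3.58, 3.41 and 3.14 FPKM in NLH and 4.06, 4.51, 4.59 and 1.60 in LH. Ctrl did not overlap HC or NLH, although Ctrl replicate 4 exceeded the highest HC mouse by very little, and LH overlapped all groups.

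No overlap between groups was seen for 1 of 6 genes in Ctrl vs. HC (Grm2), 2 in NLH vs. Ctrl (Grm2 and Grm8), 1 in LH vs. Ctrl (Grm8) and 0 in LH vs. NLH, where 5.24, 6.04, 5.59 and 2.11% of all genes did not overlap. For Grm2, Ctrl vs. HC was 0.52 (SE 0.25, limma adjusted p = 1). NLH vs. Ctrl was -0.55 (SE 0.25, adjusted p = 0.869). LH vs. Ctrl was -0.52 (adjusted p = 0.448) and rested largely on LH replicate 4, since it was -0.17 without that mouse and -0.20 (adjusted p = 0.456) without LH replicates 3 and 4. The same 4 Ctrl mice enter all 3 comparisons. Assembled transcripts without a gene name held 41.3% of the Grm2 locus, and adding them gave 0.42, -0.40 and -0.45 (adjusted p = 1, 0.813 and 0.316). Grm2-203 carries 1782 coding bases, and the longer Grm2-201 (2616 coding bases) was not analysed here.

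Grm3, the group II receptor also found in astrocytes, was measured through 1 coding transcript. The HC mean was 13.2 ± 0.164 FPKM, Ctrl was 12.3 ± 0.729, NLH was 13.6 ± 1.32 and LH was 13.7 ± 1.90 (SD, n = 4 each). All comparisons overlapped, and LH vs. Ctrl was 0.15 (SE 0.11, limma adjusted p = 0.638). Without LH replicates 3 and 4 that difference was 0.31 (adjusted p = 0.0674). With all mice and scaling by size factors it was 0.10 (limma adjusted p = 0.434).

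Of the group III receptors, Grm8 showed the most regular pattern. Grm8 encodes a presynaptic receptor with high affinity for glutamate. HC mice were at 2.79, 2.70, 2.47 and 2.47 FPKM and Ctrl mice at 2.79, 3.10, 3.10 and 2.07. NLH mice were at 3.20, 3.50, 3.87 and 4.34 FPKM and LH mice at 4.09, 3.73, 4.25 and 4.49. Every NLH and every LH mouse lay above every Ctrl mouse, by little between the lowest NLH mouse (3.20) and the highest Ctrl mice (3.10). Of all genes, 6.04% did not overlap in NLH vs. Ctrl and 5.59% in LH vs. Ctrl. LH and NLH overlapped each other, as did Ctrl and HC.

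For the Grm8 sum, LH vs. Ctrl was 0.58 (SE 0.14, limma adjusted p = 0.139). NLH vs. Ctrl was 0.43 (SE 0.14, adjusted p = 0.637). LH vs. NLH was 0.15 (SE 0.14, adjusted p = 0.811) and Ctrl vs. HC was 0.07 (SE 0.14, adjusted p = 1). LH vs. Ctrl stayed between 0.45 and 0.64 when any 1 mouse was left out, and was 0.50 (adjusted p = 0.083) without LH replicates 3 and 4. After scaling by size factors LH vs. Ctrl was 0.54 (limma adjusted p = 0.155) and NLH vs. Ctrl was 0.35 (adjusted p = 0.742). Neither comparison passed the adjusted test, and both share the Ctrl mice.

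Most of the Grm8 difference lay in 1 short transcript, Grm8-204, which carries 881 of the 2724 coding bases of the full receptor. Its values were 0.777, 0.947, 0.399 and 0.551 FPKM in HC and 0.712, 0.689, 1.22 and 0.654 in Ctrl. They were 0.702, 1.42, 1.67 and 2.27 FPKM in NLH and 1.38, 1.73, 1.87 and 2.72 in LH. All LH mice lay above all Ctrl mice, while NLH replicate 1 lay within the Ctrl range. LH vs. Ctrl was 1.14 (SE 0.33, limma adjusted p = 0.235) and NLH vs. Ctrl was 0.75 (SE 0.33, adjusted p = 0.945). Only 56 bases of Grm8-204 are in no other Grm8 transcript measured, and an estimated 12.9 to 88.7 fragments per mouse lay behind it.

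Without Grm8-204, the rest of the Grm8 sum averaged 1.94 ± 0.139 FPKM for HC, 1.95 ± 0.415 for Ctrl, 2.21 ± 0.201 for NLH and 2.21 ± 0.414 for LH (SD, n = 4 each). These groups overlapped, with Ctrl at 1.42 to 2.41 and LH at 1.77 to 2.71. The full-length forms Grm8-202 (0.769 ± 0.151 in Ctrl, 1.01 ± 0.193 in LH) and Grm8-201 (0.768 ± 0.244 in Ctrl, 0.722 ± 0.538 in LH) overlapped as well. Grm8-204 was 29.6% ± 7.49 of the Grm8 sum in Ctrl, 39.5% ± 12.8 in NLH and 46.2% ± 11.03 in LH (SD, n = 4 each). The LH minus Ctrl gap of 16.6 percentage points was 10.5 without LH replicates 3 and 4. The NLH minus Ctrl gap of 9.83 was 15.7 without NLH replicate 1 and 5.50 without NLH replicate 4. For the use of Grm8 transcripts in LH vs. Ctrl, limma diffSplice gave an adjusted p of 0.269 and the test with each transcript's own variance an adjusted p of 0.498.

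Markers of neighboring brain regions spread more widely in LH than in the other mice, as did those of hippocampal neurons, astrocytes, oligodendrocytes, microglia and choroid plexus. The summed level of 6 thalamus markers was 10.5 to 30.9 FPKM in LH and 12.1 to 15.7 in the other mice. Of these markers Prkcd had the widest range in LH, 1.48 to 10.3 FPKM with a mean of 4.41. The sum of 7 striatum markers was 8.26 to 18.3 in LH and 8.71 to 14.6 in the others. In LH vs. Ctrl 0 of 6 thalamus and 0 of 7 striatum markers passed the adjusted limma test, with medians of 0.15 and 0.14. Unadjusted, 0 thalamus markers passed, and 2 striatum markers were higher and 0 lower, against 11.5% of all genes. No measured marker of either list had a mean under 0.1 FPKM over all mice. The part of these markers in the Grm8 and Grm4 values was not tested.

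Grm7, a presynaptic receptor with low affinity for glutamate, had its highest mean sum in NLH. The mean was 12.4 ± 0.745 FPKM for HC, 12.6 ± 0.674 for Ctrl, 14.0 ± 0.751 for NLH and 12.7 ± 1.16 for LH (SD, n = 4 each). NLH mice were at 13.5 to 15.1 FPKM, overlapping only the highest of the Ctrl mice at 12.0 to 13.6. NLH vs. Ctrl was 0.15 (SE 0.09, limma adjusted p = 0.97), and Grm7 was among the 3 genes that the study's kind of test called there. LH vs. Ctrl was 0.01. After scaling by size factors these differences were 0.07 and -0.03. Grm7-202, the form without the 92-base exon (mGlu7a), was at 2.71 to 3.78 FPKM in Ctrl and at 5.71, 3.60, 5.03 and 5.74 in LH. NLH mice were at 4.85, 3.76, 5.10 and 4.07 FPKM, and HC mice at 3.14 to 4.13. Replicate 2 was the LH mouse, and also the NLH mouse, within the Ctrl range. For this form LH vs. Ctrl was 0.50 (SE 0.17, limma adjusted p = 0.307), NLH vs. Ctrl was 0.34 (adjusted p = 0.994) and LH vs. NLH was 0.16 (adjusted p = 0.77), or 0.04 without LH replicates 3 and 4.

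The share of Grm7-201, which includes the exon (mGlu7b), in both forms averaged 65.3% ± 5.44 for HC, 69.2% ± 4.96 for Ctrl, 63.7% ± 5.82 for NLH and 55.7% ± 11.3 for LH (SD, n = 4 each). LH mice were at 51.5, 71.4, 55.04 and 44.8%, so 3 of 4 lay below the Ctrl range of 65.9 to 76.4%. The LH minus Ctrl gap of -13.6 percentage points was -18.8 to -9.94 when any 1 mouse was left out and -7.81 without LH replicates 3 and 4. As with Grm5 this share was looked at after the values were known and has no test of its own. Grm7-201 has 0 bases that are in no other Grm7 transcript measured, and assembled transcripts held 35.7% of the Grm7 locus.

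**Figure D4:**
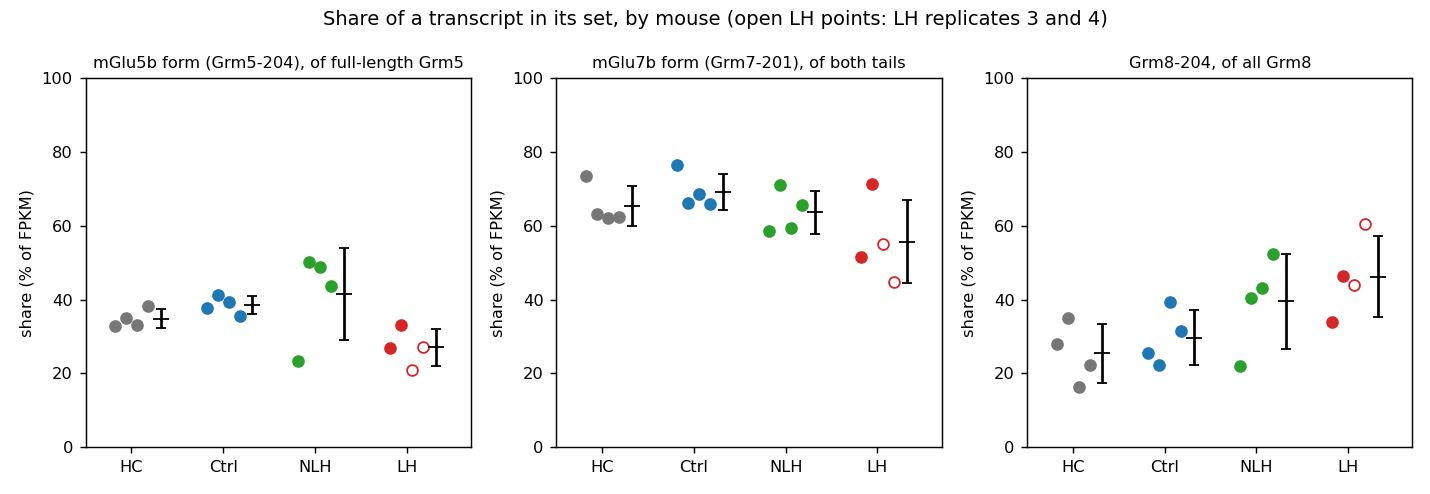
Share of 1 transcript in its set (y axis, % of FPKM, 0 to 100) for every mouse, with group mean and SD and with LH replicates 3 and 4 drawn open. The Grm5-204 share is at 20.9 to 33.2% in LH and 35.5 to 41.2% in Ctrl and overlaps between LH and both HC (32.7 to 38.3%) and NLH (replicate 1 at 23.4%), and in the other panels LH overlaps every group.

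Grm4 had the lowest level of the family members here. It averaged 1.16 ± 0.117 FPKM for HC, 1.21 ± 0.101 for Ctrl, 1.25 ± 0.338 for NLH and 1.59 ± 0.388 for LH (SD, n = 4 each). LH mice were at 2.04, 1.69, 1.504 and 1.11 FPKM, so that 3 of 4 lay above the Ctrl mice and replicate 4 within them. LH vs. Ctrl was 0.34 (SE 0.21, limma adjusted p = 0.577) and 0.58 (adjusted p = 0.11) without LH replicates 3 and 4. With all mice and scaling by size factors it was 0.29 (limma adjusted p = 0.447). Grm4-201 held 89.5% of the level, and its identifier was matched to GENCODE under a later version.

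At the level of single transcripts, 0 of 21 passed the adjusted limma test in each comparison, where 0.00374, 0.0125, 0.0462 and 0.0412% of all 80137 transcripts did in the order Ctrl vs. HC, NLH vs. Ctrl, LH vs. Ctrl and LH vs. NLH. Unadjusted, 0, 3, 5 and 1 of 21 passed, against 3.45, 5.12, 10.7 and 8.72% of all transcripts. With any 1 mouse left out these counts were 0 to 1 (1 without Ctrl replicate 4), 0 to 1 whichever mouse was left out, 3 to 7 (3 without Ctrl replicate 1, 2 or 3) and 0 to 2 (0 without NLH replicate 2 or 3, 2 without NLH replicate 1 or LH replicate 1 or 2). Without LH replicates 3 and 4 together, 3 passed when LH was compared with Ctrl and 2 with NLH. The study's kind of test gave 2, 1, 4 and 0 of 21, against 6.78, 7.32, 7.82 and 4.64%.

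The genes that work with these receptors were examined as lists. Of 17 group I partners (Gq subunits, phospholipase C, Homer and Shank scaffolds), 0 passed the adjusted test in any comparison. In LH vs. Ctrl their median difference was -0.13, against 0 over all genes, and unadjusted 2 were higher and 0 lower, where 11.5% of all genes passed in either direction. These were Homer1, a scaffold that binds the mGlu5 tail (0.31, limma adjusted p = 0.29), and Plcb4, a phospholipase C (0.46, adjusted p = 0.301). In LH vs. NLH the median of the list was -0.10, and unadjusted 1 of 17 was higher and 0 lower, against 7.54% of all genes. This was Itpr1, the receptor through which IP3 releases calcium, at 0.63 (limma adjusted p = 0.374). Its LH vs. Ctrl difference was 0.23 and NLH vs. Ctrl was -0.40.

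Of 21 group II and III partners (Gi/o subunits, adenylyl cyclases, trans-synaptic and PDZ proteins), 0 passed. Their median in LH vs. Ctrl was 0.03, and unadjusted 2 were higher and 2 lower, against the same 11.5% of all genes. Rgs4, which speeds the shut-off of Gi/o and Gq signals, differed by 0.33 (limma adjusted p = 0.209). Gnai1 averaged 23.5 FPKM in Ctrl and 29.4 in LH, and Calm3 averaged 205 in Ctrl and 165 in LH. Elfn2, a postsynaptic protein that binds group III receptors, differed by -0.62 in LH vs. Ctrl (limma adjusted p = 0.337). Its means were 2.95 FPKM for HC, 4.34 for Ctrl, 3.30 for NLH and 2.91 for LH. Elfn1, a related member of the list that did not pass unadjusted in LH vs. Ctrl and was added after its values were seen, differed by 0.60 (adjusted p = 0.624). In LH vs. NLH the median of the list was -0.07, and unadjusted 2 were higher and 0 lower, against 7.54% of all genes. Adcy8, a calcium-stimulated adenylyl cyclase, differed there by 0.98 (SE 0.21, limma adjusted p = 0.244), with LH vs. Ctrl at 0.40 and NLH vs. Ctrl at -0.57. Adcy1 averaged 37.9 FPKM in NLH and 48.9 in LH.

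Of 10 genes of glutamate supply and uptake, 0 passed, and the median in LH vs. Ctrl was 0.05. Slc17a6, the vesicular glutamate transporter VGLUT2 of thalamic and other projections, was at 1.83 ± 0.48 FPKM in Ctrl, 2.74 ± 0.44 in NLH and 3.34 ± 1.49 in LH (SD, n = 4 each). Its difference was 0.78 in LH vs. Ctrl (limma adjusted p = 0.255) and 0.58 in NLH vs. Ctrl (adjusted p = 0.836). Glul, the astrocyte enzyme that turns glutamate into glutamine, was higher in Ctrl than in HC by 0.31 (adjusted p = 1).

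For each receptor the 3 genes with the most similar levels across the 16 mice were taken by Pearson's r among 10435 other genes of at least 1 FPKM. They are a description, since the mice share their group means and library properties. Grm5 was most like Heatr5b, Rpl3 and Cs (r = 0.959, 0.959 and 0.959), and these values stayed at 0.959 to 0.968 with group means removed. Grm3 was most like Scrn1, Ubxn6 and Ddx21 (0.922, 0.922 and 0.916), and Grm2 like Fbxo46, Rcl1 and Dhx33 (0.921, 0.886 and 0.885). Without LH replicates 3 and 4 the Grm2 values were 0.886, 0.729 and 0.758, and those of the other receptors were at least 0.777. Grm4 was most like Neto2, Deptor and Coch (0.907, 0.883 and 0.879), and Grm7 like Nudt9, Ptbp2 and Gria2 (0.861, 0.856 and 0.854). Grm8 was most like Snapc5, Fxyd7 and Rnf214 (0.849, 0.835 and 0.833), and with group means removed these values were 0.517, 0.626 and 0.509.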

How the data were processed

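FPKM values per transcript were deposited by the authors for 16 hippocampus libraries, without log or scaling between mice. According to the methods and the submitters' processing notes, reads were aligned to mm10 (HISAT2 in the methods, STAR 2.42a in the notes), assembled with StringTie 1.2.3 and quantified with Cufflinks. Gene sums add all transcripts of a gene name. On log2(FPKM + 0.1), limma 3.58.1 (R 4.3.3, trend and robust) took in every mouse and estimated a mean for each group, with p-values Benjamini-Hochberg adjusted over the whole table. Fold changes on this scale understate changes of low genes. Transcript use was tested by diffSplice. On data simulated with equal spread in all groups the gene test recovered its changes, but diffSplice made false calls. A test with each transcript's own variance was therefore added after seeing this. It forms, per mouse, a transcript's log2 value minus the mean of the gene's other transcripts and takes Simes p-values per gene. Named were the 6 gene sums, transcripts of at least 10% of their gene, up to 5 transcripts per comparison with the smallest unadjusted p under 0.05 and up to 4 genes per list and comparison. Alternatives were other pseudocounts, a filter at 1 FPKM, size factors, 2-group fits, a replicate block, the study's test and leaving out mice. The members and lists were chosen with earlier results of these data known. Depth estimates assume fragments of 200 bases. No batch is given in the labels.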

Additional observations from a re-analysis of the deposited data

Results flagged for a closer look

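In groups of 4 mice, 11 of 88 groups of receptor values held 1 mouse far from the other 3 by Dixon's gap-to-range ratio, where chance gives about 1 in 20. In HC these were Grm7-201 in replicate 1 (ratio 0.837, 8.69 FPKM against 6.51 to 6.86), the Grm7-201 share in the same mouse (0.926, 73.4% against 62.3 to 63.1%) and Grm8-206 in replicate 2 (0.936, 0.682 FPKM against 0.381 to 0.400). In Ctrl they were Grm4-201 in replicate 2 (0.842, 1.24 FPKM against 1.03 to 1.06), Grm7-202 in replicate 1 (0.950, 2.71 FPKM against 3.72 to 3.78) and Grm8-204 in replicate 3 (0.896, 1.22 FPKM against 0.654 to 0.712). In NLH they were the Grm7 sum in replicate 2 (0.856, 15.1 FPKM against 13.5 to 13.7), Grm8-206 in replicate 3 (0.912, 0.236 FPKM against 0.418 to 0.436), Grm5-201 in replicate 4 (0.933, 2.30 FPKM against at most 0.153) and the Grm8-202 share among full-length Grm8 forms in replicate 2 (0.916, 82.6% against 46.5 to 49.5%). In LH it was Grm5-201 in replicate 2 (1.000, 0.890 FPKM against values near 0 in the other mice).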

How the results depend on the processing

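The counts of receptors past an adjusted p of 0.05 stayed at 0 in 179 of 190 alternative values. The unadjusted counts were less stable and moved by over 1.5 times in 83 of 190. The unadjusted study test called 1, 3 and 1 gene sums and 2, 1 and 4 transcripts in Ctrl vs. HC, NLH vs. Ctrl and LH vs. Ctrl. For transcript use by diffSplice, the fit of only 2 groups called 1 gene in Ctrl vs. HC and log2(FPKM + 0.01) called 1 in LH vs. Ctrl. Leaving out 1 mouse gave 0 to 1 in NLH vs. Ctrl (1 without NLH replicate 4) and 0 to 1 in LH vs. Ctrl (1 without LH replicate 2 or 4). The causes were not tested, and the test with each transcript's own variance called 0 in every comparison. Signs of small differences turned for Grm5 and Grm7 in Ctrl vs. HC (-0.0194 and -0.00794 with size factors), for Grm4 and Grm5 in NLH vs. Ctrl (-0.0678 and -0.0203) and for Grm7 in LH vs. Ctrl (-0.0302). Grm5 in LH vs. Ctrl turned to 0.0047 under the study's test, 0.0450 with assembled transcripts added and 0.24 without LH replicates 3 and 4. In LH vs. NLH, Grm5 turned to 0.0278 and 0.18 under the last 2 and Grm2 to -0.0473 with assembled transcripts.

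With 1 mouse left out, the log2 differences of gene sums whose ranges crossed 0 were -0.0114 to 0.0323 (Grm5) and -0.0122 to 0.0472 (Grm7) in Ctrl vs. HC, -0.12 to 0.17 (Grm4) and -0.0048 to 0.12 (Grm5) in NLH vs. Ctrl, -0.145 to 0.0994 (Grm5) and -0.0311 to 0.0739 (Grm7) in LH vs. Ctrl, and -0.11 to 0.38 (Grm2), -0.0597 to 0.0926 (Grm3) and -0.205 to 0.0391 (Grm5) in LH vs. NLH. The share of Grm8-202 among full-length Grm8 forms also crossed 0 in all 4 comparisons, and in LH vs. Ctrl its gap of 11.7 percentage points was -0.917 without LH replicate 4 and -6.16 without LH replicates 3 and 4. Equal replicate numbers did not pair mice (median correlation -0.023 over 24 pairs). The replicate block left 0 receptor genes called in every comparison, with Grm8 in LH vs. Ctrl at 0.58 (limma adjusted p = 0.207). Leaving out LH replicates 3 and 4, adding assembled transcripts, the share values and the test with own variances were chosen after seeing the data. Depth limits the lowest transcripts most, such as Grm2-204, Grm4-204 and Grm7-205 with under 1 estimated fragment per mouse on average.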
